A study of Zea mays with 64 samples.

Results

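The 300 dense windows were the 1 kb stretches of the maize genome that held the most distinct Mu insertion sites in the deposited count table. They were chosen from 165652 windows with at least 1 site, by the number of table entries whose coordinates lie 8 bp apart (9 bp with both ends) and whose count summed over all 64 libraries was 1 or more. Ties were ordered by chromosome and position. The members were thus chosen by their own number of sites, so that number is given below as a description and is not tested. They made up 0.181% of the windows and held 27726 of the 1091491 sites of 9 bp (2.54%) and 13.0% of all counts. The dense windows were proposed as candidate target hot spots of Mu, and they are described as 2 kinds: 100 held a 9 bp insertion that the authors' deposited table lists as transmitted, and 200 held none of that width. They are called dense windows here, with or without a listed insertion.

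Mu elements are DNA transposons of maize, mobilised by the transposase of the autonomous element MuDR. A new insertion duplicates a short stretch of target DNA on both sides of the element, which is why a site spans a few bases and not 1. Insertions made late in a plant's development are carried by few cells and give few counts, whereas an inherited insertion is carried by every cell. In maize, Mu elements are known to insert preferentially into the 5' ends of genes.

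The plants belonged to the inbred W22 and came from ears without Mu activity pollinated by Mu-active W22 fathers. Each kernel was chipped for an endosperm sample, and the leaf came from the seedling of the same kernel 10 to 13 days after sowing, giving 30 leaf and 30 endosperm libraries of 30 plants. There were 4 families of plants, 8 plants in each of NE71 and NE74 and 7 in each of NE72 and NE73, and 1 endosperm library from the father of every family. Insertions were mapped by MuSeq2, in which DNA sheared to a mean of 1000 bp is joined to an adapter and the DNA flanking Mu ends is amplified by PCR. A column kit was used for leaf DNA and CTAB for endosperm DNA, so tissue and extraction cannot be told apart.

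Library totals ranged from 25037 to 687094 counts in leaf, from 5457 to 105320 in progeny endosperm and from 273277 to 610687 in the fathers. Leaf libraries therefore had the larger part in the choice of windows: 83.6% of the sites in dense windows had a count in leaf, 15.8% in progeny endosperm and 24.7% in a father. For sites elsewhere these shares were 83.0%, 11.1% and 15.3%, so the leaf share was not particular to dense windows. The endosperm library of plant 7 of NE74 stood apart. It held 136 counts (1712 CPM, the count per 1000000 counts of the library) at the listed insertion chr4:192837287-192837295 of the NE71 father, for which the plant was not listed and which had 0 counts in its leaf. Further counts lay at chr1:109888325-109888333 (106, or 1334 CPM) and at position 91860770 of chromosome 6 (95, or 1196 CPM). The plant was listed for neither, and its leaf had 6 and 0 counts there. Results that could rest on this library are given without the plant where it changes a call.

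The dense windows held between 74 and 306 sites, with a median of 84, against a median of 2 over all windows. The last window inside and the next one outside both had 74 sites. Of 20 windows with exactly that number, 17 fell inside and 3 outside, so the lower bound is not a natural break. The windows just outside had 73 or 74 sites. The densest was chr5:179490000-179490999 with 306 sites, and its direct neighbour chr5:179491000-179491999 was next with 272. The other windows among the leading 10 were chr9:11958000-11958999 with 252 sites, chr1:34300000-34300999 with 216, chr2:73904000-73904999 with 190 and its neighbour chr2:73903000-73903999 with 187. They were followed by chr2:47365000-47365999 with 172, chr1:109888000-109888999 with 167, chr4:192837000-192837999 with 162 and chr7:179610000-179610999 with 158. Of these 10 windows, 4 held no listed insertion and 6 did. Coordinates are those of the deposited table, whose genome build is not given in the sources used here, and no gene annotation of that build was used.

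The dense windows lay on all 10 chromosomes and on no scaffold. Chromosome 1 held 50, chromosome 4 held 44 and chromosome 10 held 14, and per 100 Mb of chromosome (to its largest site coordinate) the number ran from 9.38 on chromosome 10 to 18.7 on chromosome 7. The densest windows of the remaining chromosomes were chr3:166753000-166753999, chr6:165554000-165554999, chr8:3074000-3074999 and chr10:148957000-148957999. Dense windows lay nearer to chromosome ends than windows at large: 46% were within 10% of a chromosome's length of an end, against 31.9% of all windows and 36.1% of all sites. Of the 200 windows without a listed insertion 50% lay there, and of the 100 with one 38%. The 300 windows next in rank had a share of 49.3%, so this position was not particular to the leading 300. Only 8 pairs of dense windows were direct neighbours, and 26 windows had another within 10 kb.

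A listed insertion lay in a larger share of dense windows than of others. Of the 300 windows 100 (33.3%) held at least 1 listed insertion of 9 bp, against 0.589% of all windows with a site and 19.3% of the 300 windows next in rank. A further 5 held only a listed insertion of another width and are counted with the 200. The 100 windows held 121 listed insertions, of which 56 were listed for a father, 2 of these also for the Mu-inactive parent, and 65 for neither. Set against the whole list, 32.7% of the 171 listed insertions of a father and 7.73% of the 841 listed for neither parent lay in dense windows. In all 100 windows the site with the most counts was a listed insertion.

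The 2 kinds of window differed in how their counts were spread. Windows with a listed insertion had a median summed count of 9102, of which the top site took a median of 93.1%. Windows without one had a median summed count of 298.5, and their top site took 14.5%. The top site held over 50% of the counts in 96 of the 100 and in 5 of the 200. Their numbers of sites had medians of 90 and 82.

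**Figure D1:**
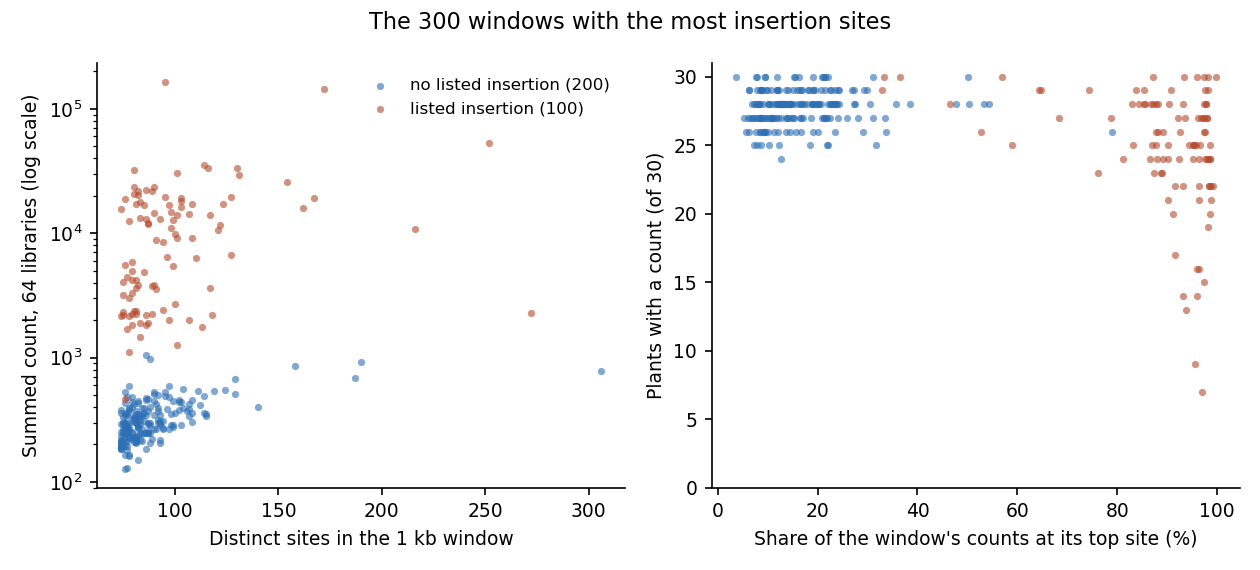
Left, summed count over the 64 libraries (log axis) against the number of distinct sites for each of the 300 dense windows. Right, the number of plants with a count in the window against the share of its counts at the top site. Red points are the 100 windows with a listed insertion, with a median summed count of 9102, and blue points the 200 without, with a median of 298.5; all blue windows had counts in at least 24 of 30 plants.

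The windows without a listed insertion collected low-count sites from nearly every plant. All 200 had counts in all 4 families and in 24 to 30 of the 30 plants, with a median of 28. In the densest, chr5:179490000-179490999, the 306 sites shared 772 counts, and the top site, chr5:179490896-179490904, had 28 counts from 12 plants of 4 families. In leaf, the number of its sites per library ran from 1 to 18 in NE71, with a median of 8, and from 2 to 47 in NE72, with a median of 35. It ran from 0 to 15 in NE73, with a median of 8, and from 9 to 31 in NE74, with a median of 17.5. The ranges of the families overlapped, and 1 leaf library, of NE73, had no site in this window. The fathers had 7 sites (NE71), 18 (NE72), 4 (NE73) and 17 (NE74) there.

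The neighbouring pair on chromosome 2 was of the same kind. The window chr2:73904000-73904999 had 190 sites, with a top site of 204 counts from 14 plants, and chr2:73903000-73903999 had 187, with a top site of 124 counts from 23 plants. Median leaf levels per family lay between 32.5 and 61.2 CPM in the former. In the latter they lay between 32.5 and 96.0 CPM. The window chr7:179610000-179610999 had a top site of 131 counts in 24 plants and all 4 families. The window chr6:165554000-165554999 had a top site of 104 counts in 7 plants and 3 families.

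In 5 windows without a listed insertion, 1 site held over 50% of the counts. The most uneven was chr10:96648000-96648999, which held 86 sites, and where 819 counts in the leaf of plant 2 of NE71 came from 1 site that starts at position 96648176. That site had 79.0% of the counts of the window.

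Windows with a listed insertion also had counts in many plants, with a median of 25 and a range from 7 to 30, and in a median of 4 families. In some of them, however, most sites came from few plants. The window chr8:3074000-3074999 held 122 sites, of which 121 had a count in NE74, 4 in NE72 and 1 each in NE71 and NE73. Its listed insertion chr8:3074764-3074772 was listed for the NE74 father and 4 plants. In leaf, these 4 plants had 17 to 45 other sites in the window, with a median of 29.5, and the other 26 plants had 0 to 3, with a median of 0. The groups did not overlap. The father of NE74 had 69 sites there and the other fathers 0.

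The same separation was seen at other windows with a listed insertion. At chr1:34300000-34300999, whose listed insertion chr1:34300461-34300469 came from the NE72 father, 3 carriers had 41, 58 and 60 other sites in leaf, and 27 non-carriers had 0 to 23. At chr4:192837000-192837999, 5 carriers of an insertion of the NE71 father had 24 to 41 and 25 non-carriers had 0 to 6. At chr1:109888000-109888999, 6 plants were listed for an insertion of a father and 1 for another, chr1:109888375-109888383, not listed for a father. The 7 carriers had 14 to 42 other sites and 23 non-carriers had 0 to 9. At chr3:166753000-166753999, 10 plants were listed, 9 of them for chr3:166753668-166753676. Carriers there had 3 to 35 and non-carriers 0 to 4, so those groups overlapped.

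At 2 of the named windows with a listed insertion, carriers did not stand apart. At chr5:179491000-179491999 the insertion chr5:179491704-179491712 was listed for 1 plant, which had 28 other sites in leaf, within the range of 0 to 50 of the 29 plants without it. At chr10:148957000-148957999 the 1 listed plant had 8 other sites, against 0 to 19 in the others. In these windows the sites were spread over plants as in the windows without a listed insertion.

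Over the windows as a whole, other sites went with the listed insertion. In 97 windows a listed insertion was called in some plants and not in others. Per plant, leaf libraries held 18.0 ± 7.76 (SD, n = 30) other sites per window where the plant was listed for the insertion and 3.00 ± 2.10 (SD, n = 30) where it was not. The difference of 15.05 ± 6.92 sites was above 0 for each of the 30 plants. It is given with no test, since carriers' sites helped to choose these windows. In endosperm the values were 3.76 and 0.315, with 29 of 30 plants positive. With all sites within 10 bp of the listed insertion left out, leaf gave 10.3 against 2.71 (30 of 30 plants positive). The mean of carriers was the higher in 94 of the 97 windows. Carriers lay entirely above non-carriers in 56 of them, where the background over all 966 windows with such an insertion was 64.3%.

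The comparison was tested on windows in whose choice a plant's own sites had no part. Windows were ranked without the family of the plant, and 28 plants then carried a listed insertion in at least 1 of the 300 windows so ranked. Their leaf libraries held 17.8 ± 10.9 other sites per window with the insertion and 2.73 ± 1.83 without it (SD, n = 28). The values with the insertion rest on 1 to 10 windows per plant, and on 1 window in plants 3, 4, 6 and 7 of NE71. The difference between windows with and without the insertion was above 0 for all 28 plants (sign-flip permutation over plants, two-sided, 100000 resamples, p = 1e-05, the smallest this test can give). Over all 966 windows with a listed insertion called in some plants only, dense or not, the values were 10.1 ± 4.31 and 1.28 ± 0.880 (SD, n = 30; 30 of 30 plants, permutation p = 1e-05). In the 869 of these outside the dense windows, none of which had over 74 sites, they were 8.01 and 1.10.

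**Figure D2:**
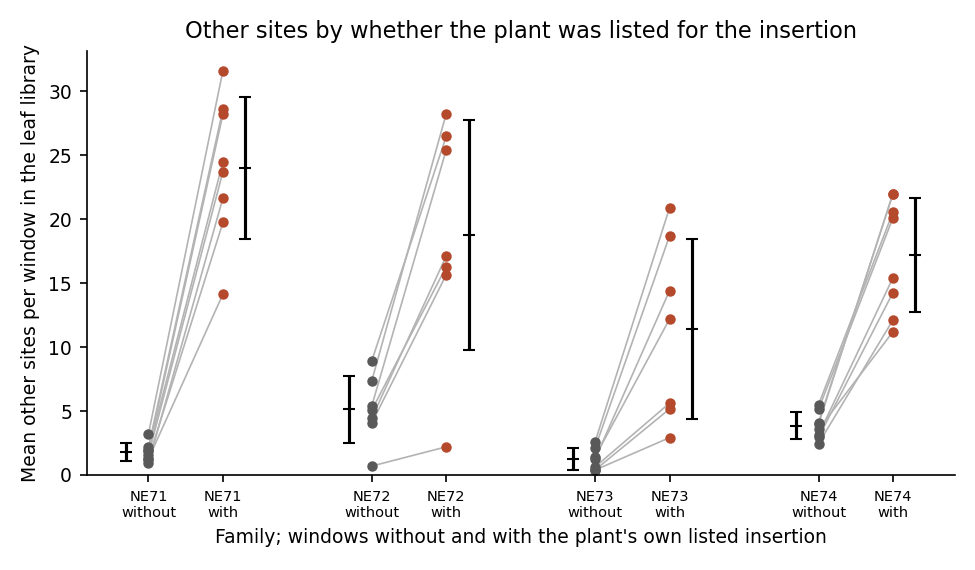
Mean number of other sites per window in each plant's leaf library, over the 97 dense windows whose listed insertion was called in some plants only, split by whether the plant was listed for it. Grey and red points joined by a line are 1 plant, black bars are mean ± SD per family. All 30 plants had more other sites where they carried the listed insertion, with means of 18.0 against 3.00.

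Within windows, sites stood close together. Neighbouring sites were a median of 3 bp apart over all dense windows, and 75.3% of gaps were 10 bp or less. The median gap was 2 bp in windows with a listed insertion and 4 bp in the rest, and gaps of 1 bp made up 36.3% and 23.7%. The densest 100 bp of a window held a median of 44.9% of its sites with a listed insertion and 30.4% without. The middle 50% of sites spanned a median of 208 bp in the former and 366 bp in the latter. Joining sites within 10 bp of each other left 7062 clusters, with a median of 24 per window and a range from 9 to 36.

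Other sites crowded around the top site, more so where it was a listed insertion. Of 9892 other sites in the 100 windows, 8.53% lay 1 to 5 bp from the top site and 5.59% lay 6 to 10 bp away. In the 200 windows these shares were 4.04% and 2.06% of 17534 sites. Above 200 and up to 400 bp the order was turned, with 16.2% and 24.6%. At the listed insertion of chr1:34300000-34300999 the sites shifted by 1 base on either side had 327 and 53 counts beside the 9693 of the insertion. At chr3:166753000-166753999 the corresponding counts were 573 and 381 beside 24231. Whether sites a few bases from an abundant insertion are separate insertions was not tested.

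**Figure D3:**
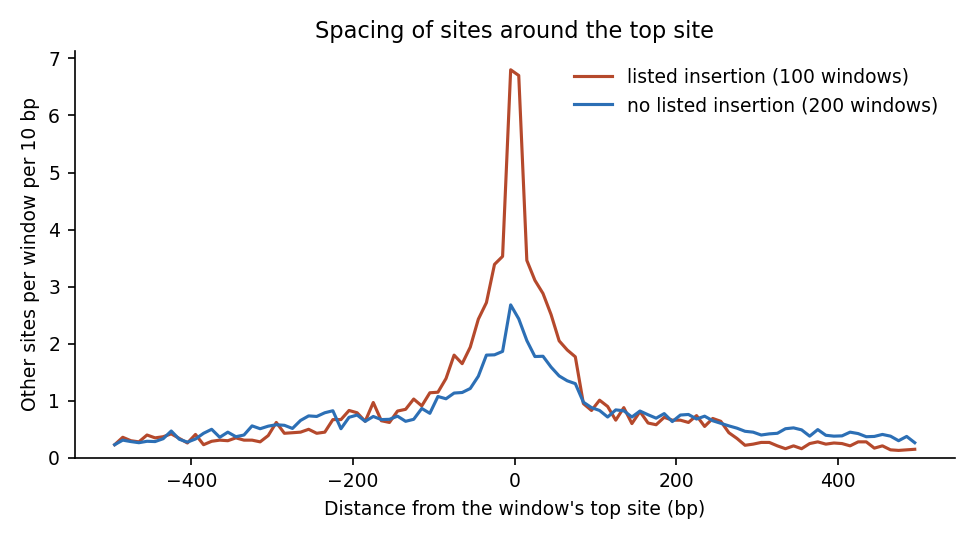
Other sites per window in steps of 10 bp, by distance from the window's top site, for the 100 windows with a listed insertion (red) and the 200 without (blue). Both lines peak at the top site, and the peak of the red line is the higher; the outer parts are lowered for all windows whose top site is near a window edge.

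Most sites had counts in a single plant, but a smaller share of them in dense windows than elsewhere. Of the 27726 sites in dense windows, 59.1% had counts in 1 plant, 10.3% in fathers only and 30.6% in 2 or more plants. For sites elsewhere these shares were 73.7%, 9.78% and 16.5%. At least 2 families shared 27.3% of the sites, against 15.5% elsewhere. Dense windows also had fewer sites of a single count, 49.5% against 62.6%, and a site of 1 count cannot be shared. Among sites of exactly 2 counts, 32.3% of 5168 in dense windows had them in 2 families, and 24.5% of 191752 elsewhere. In windows without a listed insertion, 29.8% of sites were in 2 or more families, and in windows with one, 22.3% of the sites other than the listed insertions.

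Whether the same windows collected sites in each family was examined by ranking the windows without a family and counting that family's sites. Windows ranked without NE71 held a mean of 21.5 ± 14.7 (SD over 300 windows) sites of NE71, against 1.47 over all windows. The corresponding means were 41.1 against 3.07 for NE72, 13.9 against 0.812 for NE73 and 37.3 against 2.67 for NE74. Sites that no other family shared gave 8.51 against 0.941 for NE71, 20.95 against 2.24 for NE72, 4.78 against 0.476 for NE73 and 17.7 against 1.89 for NE74. Of the windows so ranked, 232 to 284 belonged to the 300. Thus windows rich in sites in the other families were also rich in sites private to the family left out, in each of the 4 families. In the 300 windows next in each ranking, these private sites had means of 7.28 (NE71), 18.4 (NE72), 3.86 (NE73) and 14.9 (NE74). The richness was therefore not particular to the leading 300 of a ranking, whose means were somewhat higher in each family. When each family was ranked alone, pairs of families shared 110 (NE71 and NE73) to 144 (NE72 and NE74) of their 300 windows, and 74 were common to all 4.

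The number of sites in a family also depended on whether a listed insertion was present in it. In NE72, windows without any listed insertion held a median of 45 sites, windows with an insertion listed in NE72 held 62 others, and windows with one listed in other families only held 26. The same order held in the other families: 23, 64.5 and 13 in NE71, 14, 37 and 7.5 in NE73, and 39.5, 61.5 and 26 in NE74. Windows with a listed insertion were thus less rich in families without it than the windows that had none in any family. These values are a description, since the sites also decided which windows were chosen.

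Endosperm and leaf of the same kernel shared more sites than siblings did in windows with a listed insertion. The 5310 site observations in endosperm of dense windows, listed insertions left out, were looked up in leaf libraries. Own leaf held 22.4 ± 10.4% (SD, n = 30) of a plant's endosperm sites, leaves of its siblings 16.7 ± 4.16% and leaves of other families 12.4 ± 3.19%. The excess of own leaf over siblings was 5.70 percentage points (24 of 30 plants above 0, permutation p = 0.00176). In windows with a listed insertion, own leaf held 31.8 ± 15.3% and sibling leaf 19.0 ± 4.82% (27 of 30 plants, permutation p = 1e-05). In windows without one, own leaf held 14.4 ± 8.38%, sibling leaf 14.8 ± 5.88% and leaf of other families 14.2 ± 3.05%, with a positive excess for 15 plants (permutation p = 0.714). The excess was larger in the former by 13.3 ± 15.1 points (SD, n = 30; 27 of 30 plants, sign-flip permutation p = 1e-05). Outside the dense windows, the shares were 6.26%, 5.64% and 5.50%. With sites within 10 bp of a listed insertion left out, the excess in dense windows was 1.15 points (17 of 30 plants, permutation p = 0.354). Sites of these same libraries chose the windows, so the values of this paragraph are a description. Own leaf and endosperm also share a plant's call for a listed insertion, which siblings need not carry. The own-leaf excess in windows with a listed insertion is therefore not separate from the carrier comparison above.

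**Figure D4:**
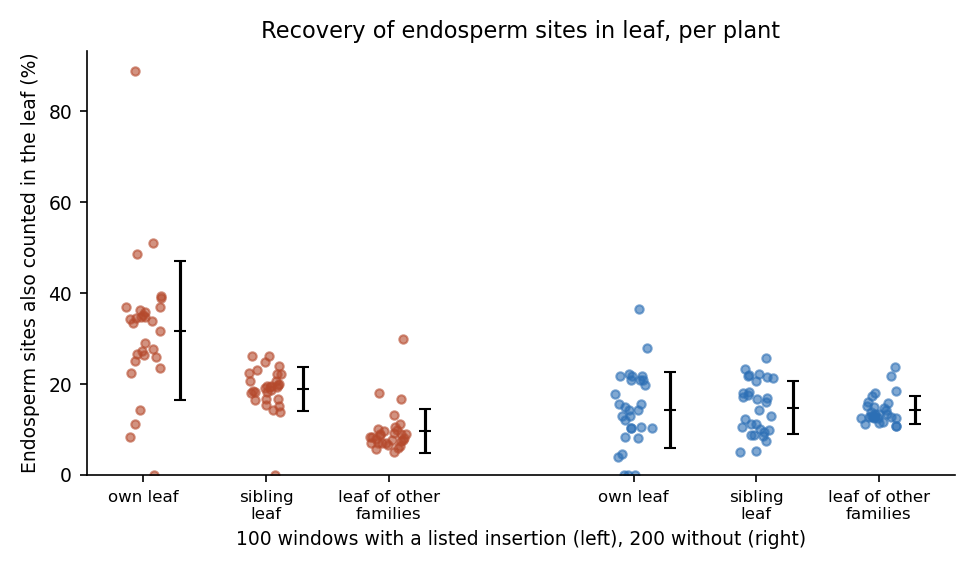
Share of a plant's endosperm sites, listed insertions left out, that also had a count in its own leaf, in leaves of siblings (mean) and in leaves of other families (mean). Points are the 30 plants, black bars mean ± SD. Own leaf exceeded sibling leaf in the 100 windows with a listed insertion (31.8% against 19.0%), and the 3 values were 14.4%, 14.8% and 14.2% in the 200 without.

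The share of a library's counts, as opposed to its sites, that fell into dense windows was compared between tissues of the same kernel. It was 11.5 ± 1.95% in leaf and 12.2 ± 2.01% in endosperm (SD, n = 30), lower in leaf in 24 of 30 plants, with a mean difference of -0.743 percentage points (sign-flip permutation p = 0.00084). The 4 fathers ranged from 16.1 to 20.5%. Without the plant as replicate block the permutation p was 0.151. Sites of these same libraries had also chosen the windows. In windows ranked without the family of the plant the shares were 6.74% and 7.75%, lower in leaf in 30 of 30 plants (permutation p = 1e-05). The direction turned when listed insertions were left out and shares were taken of the remaining counts (0.0820 points, permutation p = 0.688). As shares of all counts of the library, sites other than listed insertions in dense windows held 0.996% in leaf and 0.573% in endosperm, a description. The direction also turned with sites within 10 bp merged before ranking (0.227 points, permutation p = 1e-05).

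The difference had opposite signs in the 2 kinds of window. In the 100 windows with a listed insertion, leaf had 10.8 ± 1.98% and endosperm 11.9 ± 2.04%, lower in leaf in 24 of 30 plants. In the 200 windows without one, leaf had 0.628 ± 0.168% and endosperm 0.319 ± 0.178%, higher in leaf in 29 of 30 plants. In windows ranked without the family of the plant, leaf and endosperm had 6.13% and 7.44% in those with a listed insertion (lower in leaf in 30 of 30 plants, permutation p = 1e-05). In those without one they had 0.611% and 0.312% (higher in leaf in 29 of 30 plants, permutation p = 1e-05). Leaf minus endosperm differed between these kinds by -1.61 ± 0.677 points (windows with minus windows without; 30 of 30 plants negative, permutation p = 1e-05). Leaf libraries supplied most sites of the choice, and windows without a listed insertion that were ranked on endosperm libraries alone had 0.446 ± 0.133% in leaf against 0.342 ± 0.189%. The split by listed insertions was chosen after the data were seen. A leaf excess of about this size was also the median over all windows in the edgeR test of single windows below (log2 fold change 0.93), so it is not read as particular to the dense windows without a listed insertion.

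At matched depth the deeper library of a plant was sampled to the total of the shallower. Dense windows then held 4.17 ± 0.569% of the distinct sites of leaf and 4.89 ± 1.503% of those of endosperm, a description, as sites made the choice. In windows ranked without the family of the plant, leaf had 3.50 ± 0.543% and endosperm 3.94 ± 1.35% (difference -0.430 points, lower in leaf in 21 of 30 plants, sign-flip permutation p = 0.00768). Of these, windows with a listed insertion gave -0.575 points (27 of 30 plants lower in leaf, permutation p = 1e-05) and windows without one 0.144 points (18 of 30 plants higher in leaf, permutation p = 0.067).

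**Figure D5:**
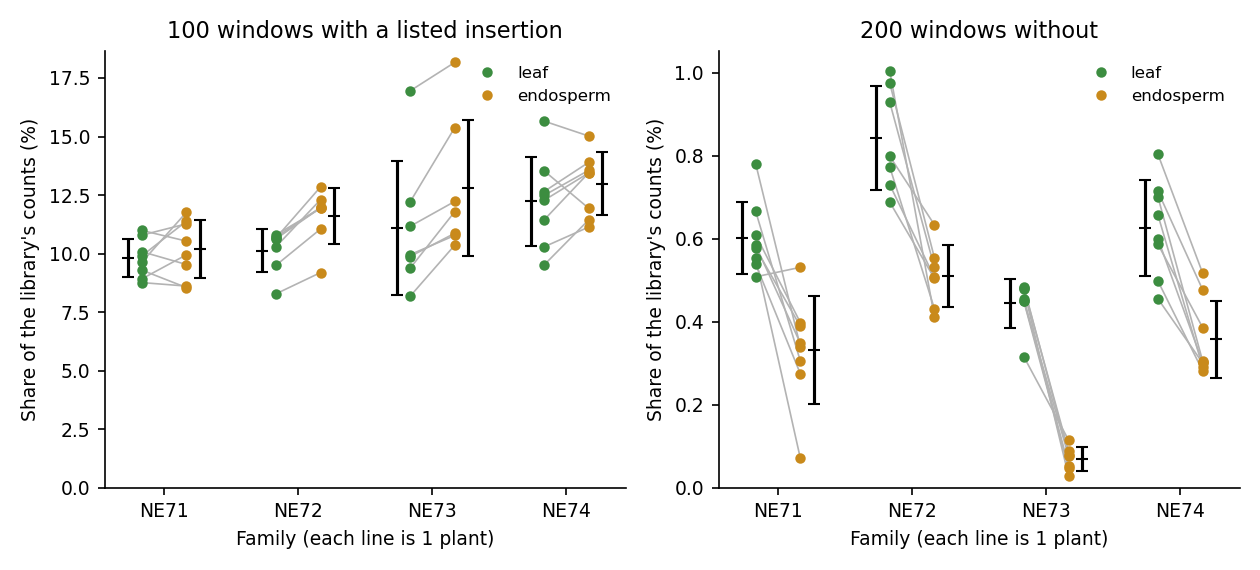
Share of each library's counts in the 100 windows with a listed insertion (left) and the 200 without (right), by family. Green points are leaf and orange points endosperm, joined by plant, and black bars are mean ± SD. In the windows without a listed insertion leaf was above endosperm in 29 of 30 plants, and NE73 endosperm was lowest.

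In the 200 windows without a listed insertion, leaf shares averaged 0.843% for NE72, 0.627% for NE74, 0.602% for NE71 and 0.445% for NE73. Endosperm shares averaged 0.510%, 0.358%, 0.332% and 0.0700% in the same order. Because NE72 supplied most sites to the choice and NE73 fewest, families were also compared in windows ranked without the family whose share was taken. Each family was then measured in its own windows, 190 to 200 of them without a listed insertion. Family and window set therefore cannot be told apart in this comparison. Without a listed insertion, these windows held 0.834%, 0.620%, 0.561% and 0.436% in leaf, again in that order (F = 23.9, permutation of family labels, p = 1e-05). In endosperm they held 0.508%, 0.363%, 0.301% and 0.0683% (F = 31.1, permutation p = 1e-05). When instead all windows ranked without the family were used, only the listed insertions themselves were left out. Shares were then taken of the counts outside listed insertions, in place of all counts of the library, and families did not pass the test. Leaf means were then 3.21% for NE72, 3.29% for NE74, 3.46% for NE71 and 3.56% for NE73 (F = 0.366, permutation p = 0.926), and endosperm gave F = 1.85 (permutation p = 0.164). The 2 comparisons differ in their denominator as well as in their windows, so they cannot be set side by side. As shares of all counts of the library, sites other than listed insertions in the 300 windows kept the order of the families. They averaged 1.30% (NE72), 1.01% (NE74), 0.962% (NE71) and 0.708% (NE73) in leaf. In endosperm the averages were 0.866%, 0.687%, 0.592% and 0.129%. The 7 NE73 endosperm libraries also had few sites over the whole genome, a mean of 1233 against 4086 to 6728 in the other families, and the part of this in the result was not tested. Over all 300 windows, the leaf shares of the families ran from 10.4 to 12.9% (F = 2.73, permutation p = 0.0568, or 0.0232 without plant 7 of NE74). The endosperm shares ran from 10.5 to 13.3% (F = 3.83, permutation p = 0.0187). Sites of these same libraries chose the 300 windows, so these values and the ones that follow are a description. The call in endosperm was lost under 7 of 26 alternatives, among them without NE71 (permutation p = 0.499), without NE74 (0.0638), with windows shifted by 500 bp (0.286) and at summed counts of 2 or more (0.803). Within families, the tissue difference over the 300 windows was negative in 7 of 7 plants of NE72 and of NE73 (exact sign-flip p = 0.0156 each, 0.0313 after Benjamini-Hochberg adjustment over the 4 families). In NE71 and NE74 the adjusted exact p was 0.688 and 0.427. A test of the difference itself between families gave F = 2.39 (permutation of family labels, p = 0.0903).

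Single windows were then compared between leaf and endosperm with edgeR's quasi-likelihood test, with the plant as block and library totals as offsets. Windows with a summed count of 20 or more and counts in 10 or more libraries were tested, 25223 in all, among them all 300 dense windows. Of the dense windows, 11 were higher in leaf (Benjamini-Hochberg adjusted p under 0.05 over all windows tested) and 1 was lower. Over all windows tested, 0.115% were called higher and 0.0198% lower. Of the sites that chose the dense windows, 83.6% had a count in leaf and 15.8% in progeny endosperm, against 83.0% and 11.1% of sites elsewhere. The numbers called among dense windows are therefore a description. The median log2 fold change was 0.96 in dense windows, 0.55 in those with and 1.09 in those without a listed insertion, and 0.93 over all windows. How the dense windows stood against the rest depended on the fit. Their median and that of all windows were 0.55 and -0.97 with DESeq2, 2.45 and 1.96 with TMM scaling in place of library totals, and 0.98 and 0.63 when windows with counts in 3 or more libraries were tested. Each dense window held at least 128 counts, above the minimum of 20 for a window to be tested. Leaving out the 8 plants of NE71, the 7 of NE72, the 7 of NE73 or the 8 of NE74 reduced the 11 to 2, 1, 3 and 1. With TMM scaling 296 dense windows were called higher.

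The largest changes were in windows without a listed insertion and with almost no endosperm counts. The window chr10:96648000-96648999 had counts in 26 of 30 leaf and 3 of 30 endosperm libraries, with a leaf median of 15.7 CPM and an endosperm median of 0 (log2 fold change 3.85, edgeR adjusted p = 0.0106). Its highest leaf library, at 3543 CPM, was that of plant 2 of NE71 named above. The window chr9:26914000-26914999 had 395 counts in 28 leaf libraries and 4 counts in 3 endosperm libraries (log2 fold change 3.45, edgeR adjusted p = 0.00574). The window chr4:72167000-72167999 had 234 counts in leaf and 2 in endosperm (3.38, adjusted p = 0.0422), and leaf was higher in 28 of 30 plants. The windows chr7:883000-883999 and chr3:8751000-8751999 had log2 fold changes of 3.27 and 3.02 (edgeR adjusted p = 0.0315 and 0.0191). With so few endosperm counts these fold changes depend on the model's prior count, and only their counts are firm. Nearly all their progeny counts were in leaf, the tissue that supplied most sites of the choice. Their direction is therefore a description as well.

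The window lower in leaf held an insertion present in every plant. The window chr2:47365000-47365999 contained the insertion chr2:47365707-47365715, listed for all 30 plants, the 4 fathers and the Mu-inactive parent. Its levels ran from 5742 to 19812 CPM in leaf, with a median of 12443, and from 10616 to 30420 CPM in endosperm, with a median of 20167. The ranges overlapped, yet endosperm was higher in 30 of 30 plants (log2 fold change -0.80, edgeR adjusted p = 0.0106). This call was not stable: edgeR called 0 dense windows lower with TMM scaling, with DESeq2 size factors, with no replicate block, with counts in 3 or more libraries, without NE72 and without NE73. The window chr9:11958000-11958999 held the insertion chr9:11958559-11958567, listed for all plants and fathers but not for the Mu-inactive parent. This window was not called (log2 fold change -0.30, edgeR adjusted p = 0.456). Its median levels were 5039, 3016, 5389 and 3646 CPM in leaf of NE71 to NE74 and 4676, 4714, 5212 and 4437 CPM in endosperm.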

How the data were processed

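For 64 libraries, the authors deposited raw counts per insertion site, and a list of 1058 transmitted insertions with a call (0 or 1) per plant and parent, per the file headers. Bowtie2 is named in the submitters' processing notes; its version, the counter, the build of the coordinates and the unit counted (reads or molecules) are not given in the sources used here. Of 1091553 table entries, 62 of other width were left out of the windows, and 0 per-sample columns were unused. Intervals for single counts are not given, as PCR products are not independent molecules.

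Windows were formed with Python 3.11.15, numpy 2.4.6 and pandas 2.3.3. Sample titles gave the groups. The tissues of a plant were paired because the series text calls them matched: after subtraction of the family mean, their shares of counts in dense windows correlated with Pearson's r = 0.846 (permutation p = 1e-05; 0.720 without the 2 plants farthest from the median) and Spearman's rho = 0.714 (permutation p = 2e-05). For shares of the counts outside listed insertions these were 0.0878 (permutation p = 0.604, with r = 0.459 without the 2) and 0.304 (permutation p = 0.103). The pairing therefore rests on the series text. Tests were two-sided sign-flip permutations over plants (100000 resamples, exact within families) and permutations of family labels. Per-window counts were tested with edgeR 4.0.16 in R 4.3.3, with DESeq2 1.42.0 as an alternative. On simulated counts for the same 25223 windows, 37.5% of 200 windows changed 4-fold were recovered, with 0 false calls. The simulation gave a window the same mean in all plants and a fixed dispersion. It held no plant effects and no insertions present in some plants only, so it does not measure false calls in the real counts. The windows, lists and tests were chosen with earlier results of these data known. Named windows were the 10 with most sites, the densest of each chromosome, the 3 with most sites with and without a listed insertion, and the 5 with the largest fold change in each direction among those called between tissues. Whether replicates differ biologically or technically was not separable: p-values measure the spread between plants as sampled.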

Additional observations from a re-analysis of the deposited data

Results flagged for a closer look

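In 32 sets of 7 or 8 plants of a family, 5 values lay far from their siblings, where chance alone would set apart about 1 set in 20. In the leaf of plant 2 of NE71, dense windows held 7.41% of the counts outside listed insertions, against 3.08 to 4.34% in the other 7 plants. The site at position 96648176 of chromosome 10 gave 819 of the 1859 such counts. In the endosperm of plant 5 of NE71 this share was 5.23%, against 3.08 to 3.90%, from 369 counts, of which no site gave more than 10. Plant 7 of NE73 was set apart 3 times. At matched depth its dense windows held 6.44% of the sites in leaf, against 3.63 to 4.17%, and 11.6% in endosperm, against 3.65 to 6.25%. Its own leaf exceeded sibling leaves in recovery of endosperm sites by 38.9 percentage points, against -8.64 to 7.12. The endosperm share rests on 34 of 293 sites, and the recovery on the 15 of them that remained without listed insertions. The recovery used its whole leaf library, the deepest of the family at 338457 counts. For the leaf share, that library was sampled to 9096 counts, which left 96 of 1490 sites. Unsampled, its leaf share was 3.84%, within the 3.52 to 3.95% of its siblings.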

How the results depend on the processing

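Carriers exceeded non-carriers under all 12 alternatives (3.20 to 16.5 sites), leaving out NE71 to NE74 included (12.4 to 16.5), and own-leaf excess kept its call under 10 of 12. It fell to 1.15 points without sites within 10 bp of a listed insertion and was -0.464 in the 200 windows without one. The leaf deficit in counts turned with merged sites (0.227, permutation p = 1e-05), 1000 windows (0.340), listed insertions left out (0.0820, also ranked without the family 0.176), and in windows without a listed insertion (0.309, ranked on leaf 0.363, ranked on endosperm 0.104, ranked without the family 0.2997). It weakened when ranked on leaf (-0.283) and with no replicate block (-0.743, permutation p = 0.151). Leaving out families gave -0.965 to -0.567. With listed insertions left out, the shares were of the counts outside them. The deficit in distinct sites weakened at summed counts of 10 or more (-0.245) and turned with merged sites (0.0997) and without a listed insertion (0.173, ranked without the family 0.144). The replicate block changed no call for carriers, own leaf or distinct sites.

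The F among families in leaf passed 0.05 at summed counts of 10 or more (4.10), with 500 bp windows (3.48), merged sites (9.07), ranking on endosperm (29.9), sampled libraries (5.53), 100 windows (4.67), 1000 windows (11.3), ranking without the family (13.0), without plant 7 of NE74 (3.602), without NE73 (7.68), with a listed insertion only (2.88, ranked without the family 14.6) and without one only (18.7, ranked on leaf 20.7, ranked on endosperm 12.9, ranked without the family 23.9); ranked without the family with listed insertions left out it was 0.366. In endosperm the call was lost at summed counts of 2 or more (0.368), shifted windows (1.33), 2 kb windows (1.27) and ranking on leaf (2.10). The same held without NE71 (0.749), without NE74 (2.97), and ranked without the family with listed insertions left out (1.85). With windows ranked without the family, each family was measured in its own windows. Where listed insertions were left out, shares were of the counts outside them.

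Windows called higher and lower in leaf numbered 39 and 4 with DESeq2 (2 had no adjusted p), 1 and 0 with counts in 3 or more libraries, 296 and 0 with TMM, 299 and 0 with DESeq2 size factors, 38 and 0 with no replicate block, and 80 and 4 at 100 or more counts in 20 or more libraries. Without NE71, NE72, NE73 and NE74 they were 2 and 1, 1 and 0, 3 and 0, and 1 and 1. The 2 scalings moved the median log2 fold change of all windows from 0.93 to 1.96 and 2.09, so calls with them carry that shift. Of the 300 windows, 73 stayed with merged sites, 230 at summed counts of 2 or more and 128 at 10 or more. Shallow endosperm libraries limit what can be seen of low-count windows there.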
